A study of Mus musculus with 18 samples.

Results

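The genes described here are 10 genes of fast skeletal muscle fibres or of skeletal fibres in general, *Myh1*, *Myh2*, *Myh4*, *Mylpf*, *Acta1*, *Tnnt3*, *Tnnc2*, *Atp2a1*, *Pvalb* and *Ckm*, as measured by bulk RNA-seq of mouse aorta. They are 10 of the 55453 gene symbols in the tables of counts. The genes were chosen by symbol with results of the genotype comparisons in view, so their values in those comparisons are given as a description. They did not behave as a single group. In the HDR experiment 4 of them were highest in wild-type library 3 and the other 6 in mutant library 5. In the PE2 experiment 6 were highest in mutant library 3. The share of all genes that were highest in each library is not given here. Such counts, here and below, are therefore a description.

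A skeletal muscle fibre contracts when myosin motors of the thick filament pull on actin of the thin filament. Calcium released from the sarcoplasmic reticulum binds troponin C and frees the thin filament, and a calcium pump then returns it to the store. Fast fibres carry their own forms of the myosin heavy chain, the troponins, the calcium pump and the calcium buffer parvalbumin. The wall of the aorta instead contains smooth muscle cells, which use other actin and myosin genes, and striated fibres are not part of it.

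All mutant mice were homozygous for a change in a CArG box, the binding site of serum response factor, upstream of *Tspan2*, and all control mice were wild type. In the HDR experiment (homology-directed repair with Cas9 and an sgRNA, 3 bases substituted) the mice were labelled C57BL/6 and were 12 weeks old, with 5 wild-type and 5 *Tspan2* sg/sg aortae. In the PE2 experiment (a prime editor that joins a Cas9 nickase to a reverse transcriptase, with a pegRNA, 1 base substituted) the mice were labelled FVB/N/B6(Cg)-Tyrc-2J/J and were 8 weeks old, with 4 wild-type and 4 *Tspan2* peg/peg aortae. By the methods, founders of both experiments came from oocytes of 1 and the same strain cross and were bred to C57BL/6J, so the labelled strain difference is uncertain. The HDR libraries carry the numbers 2 to 6 in each genotype, which do not match the numbers of the labels, and the PE2 libraries 1 to 4. Each aorta had been cleaned of surrounding tissue, both genotypes of the HDR experiment held 3 females and 2 males, and PE2 wild-type library 4 was the only male of its experiment. The sources do not tie single aortae to litters or founders, and the p-values below measure the spread between these aortae.

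Depth ran from 17290992 to 24880385 counts in the HDR and from 38820265 to 44895615 counts in the PE2 libraries. *Tspan2*, the gene next to the edited site, was at 112 to 265 CPM (counts scaled to library size, after TMM scaling within each experiment) in HDR wild type and at 16.0 to 36.6 CPM in sg/sg, and at 186 to 284 CPM in PE2 wild type and 11.9 to 25.5 CPM in peg/peg. The groups did not overlap in either experiment. The smooth muscle genes *Acta2* and *Myh11* were abundant in every library, with lowest values of 5030 and 4726 CPM.

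Peg/peg library 3 stood apart from the others. Its correlation with the other PE2 libraries over 16401 genes ran from 0.891 to 0.902, against medians of 0.973 to 0.982 for the other 7. Genes named after their values were seen set it apart as well: the uroplakin *Upk1b*, a membrane protein of the bladder lining, was at 207 CPM there and at no more than 9.05 CPM in the other PE2 libraries, and *Hoxa13*, a homeobox gene of the hind end of the body, was at 55.7 CPM against at most 0.331 CPM. The brown fat gene *Ucp1* was at 1.36 CPM in it and at 163 to 1641 CPM in the others. HDR wild-type library 3 shared part of this, with 20.1 CPM of *Upk1b*, 9.36 CPM of *Hoxa13* and 6.66 CPM of *Hoxd13*, the last of which reached no more than 0.0566 CPM in the other 9 HDR libraries. *Upk1b* was not particular to it, at 11.03 CPM in sg/sg library 2 and 30.5 CPM in sg/sg library 4. Peg/peg library 3 and HDR wild-type library 3 both carried *Acta2* and *Myh11*, and results that rest on these 2 libraries are given with and without them.

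The study edited a CArG box, and this motif was therefore looked for in the promoters of the 10 genes. RefSeq promoter sequences on GRCm38.p6 were matched for 9 of the 10 genes, with 2 windows for *Pvalb*. They run from 250 bases before to 50 after the start in that source. This start can differ from that in Gencode, the annotation used for gene positions below. The window of *Myh4* ended at 67237861, before its Gencode start at 67238029, and those of *Ckm* and *Mylpf* lay within the Gencode gene. An exact CArG box stood in the windows of *Acta1* and *Myh4*. The 3 windows shown are these and that of *Myh2*, a neighbour of *Myh4* whose counts peaked in the same libraries as those of *Acta1*. Capitals mark the CArG box and TATAAA in either direction.
*Acta1*, chr8:123894726-123895025, minus strand: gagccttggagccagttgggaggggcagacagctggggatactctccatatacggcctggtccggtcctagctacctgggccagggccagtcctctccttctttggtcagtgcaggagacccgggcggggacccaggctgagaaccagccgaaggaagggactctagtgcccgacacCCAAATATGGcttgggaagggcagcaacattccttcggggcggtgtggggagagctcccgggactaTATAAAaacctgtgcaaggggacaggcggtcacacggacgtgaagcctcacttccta
*Myh4*, chr11:67237562-67237861, plus strand: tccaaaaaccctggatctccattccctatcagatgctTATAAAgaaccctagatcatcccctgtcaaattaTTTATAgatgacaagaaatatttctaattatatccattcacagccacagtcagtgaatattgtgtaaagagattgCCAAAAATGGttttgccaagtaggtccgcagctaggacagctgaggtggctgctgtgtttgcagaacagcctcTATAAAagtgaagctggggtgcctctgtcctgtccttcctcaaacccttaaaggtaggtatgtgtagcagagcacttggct
*Myh2*, chr11:67170777-67171076, plus strand: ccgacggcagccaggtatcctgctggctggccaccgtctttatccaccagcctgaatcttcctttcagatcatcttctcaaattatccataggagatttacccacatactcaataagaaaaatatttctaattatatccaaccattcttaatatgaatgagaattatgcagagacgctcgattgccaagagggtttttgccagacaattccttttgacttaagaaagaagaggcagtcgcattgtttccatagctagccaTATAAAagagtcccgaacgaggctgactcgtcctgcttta

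The *Acta1* box began at position -73 from the RefSeq start and that of *Myh4* at position -104. Of 32851 promoter windows of the same length, 1.63% held a CArG box. TATAAA was found in 13.6% of them, and in the windows of *Acta1*, *Myh1*, *Myh2* and *Myh4*. The site of the factor MEF2 (1.86% of windows) was found for *Myh1*, *Myh4* and 1 window of *Pvalb*, and the E-box CANNTG (72.3% of windows) in at least 1 window of each of *Acta1*, *Ckm*, *Myh4*, *Tnnc2*, *Mylpf*, *Pvalb* and *Atp2a1*. All motifs were searched on both strands, and overlaps between them were allowed. These matches are a description of the windows.

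The heavy chain genes *Myh1*, *Myh2* and *Myh4* encode the motor proteins of type IIx, IIa and IIb fibres and lie in 1 cluster on chromosome 11 (GRCm38; *Myh4* at chr11:67238029-67260446). *Myh4* was at 0.704, 0.331, 0.662, 0.542 and 0.254 CPM in HDR wild-type libraries 2 to 6. In sg/sg libraries 2 to 6 it was at 7.91, 3.57, 0.792, 31.1 and 5.64 CPM. Every mutant library was above every wild-type library, but library 5 alone held 63.5% of the mutant group's sum. Mutant library 4 was above the highest wild type, library 2, only by scaling, with 14 counts in each. The ratio of group means was 19.7, and 8.99 without library 5. In PE2 *Myh4* held 33 counts in the 4 wild-type libraries together and 60 counts in peg/peg, 45 of them in library 3, and no library exceeded 0.988 CPM. The groups overlapped there.

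*Myh1* was at 1.005, 2.03, 1.06, 0.591 and 1.48 CPM in HDR wild-type libraries 2 to 6 and at 4.31, 1.592, 1.75, 8.23 and 1.596 CPM in sg/sg libraries 2 to 6. Only sg/sg libraries 2 and 5 lay above the wild-type range. Its PE2 levels were 0.270 to 1.66 CPM in wild type and 0.509 to 1.34 CPM in peg/peg, with wild-type libraries 1 and 3 the highest.

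*Myh2* followed another order. It was at 1.11, 30.8, 0.441, 0.394 and 1.35 CPM in HDR wild-type libraries 2 to 6, so that library 3 held 90.3% of the group's sum. In sg/sg it was at 8.57, 0.868, 0.453, 0.514 and 2.08 CPM, highest in library 2 and low in library 5, where *Myh4* peaked. It reached 57.1 CPM in PE2 peg/peg library 3, with 0.339 to 1.20 CPM in the other 7 libraries.

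*Mylpf*, the regulatory light chain of fast myosin, varied least. It lay between 0.529 and 0.846 CPM in all 5 HDR wild-type libraries and was at 2.02, 0.675, 0.509, 4.35 and 1.38 CPM in sg/sg libraries 2 to 6. Libraries 2, 5 and 6 were above the wild-type range and library 4 below it. PE2 wild type was at 1.45 to 2.57 CPM and peg/peg at 0.967 to 2.06 CPM.

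**Figure D1:**
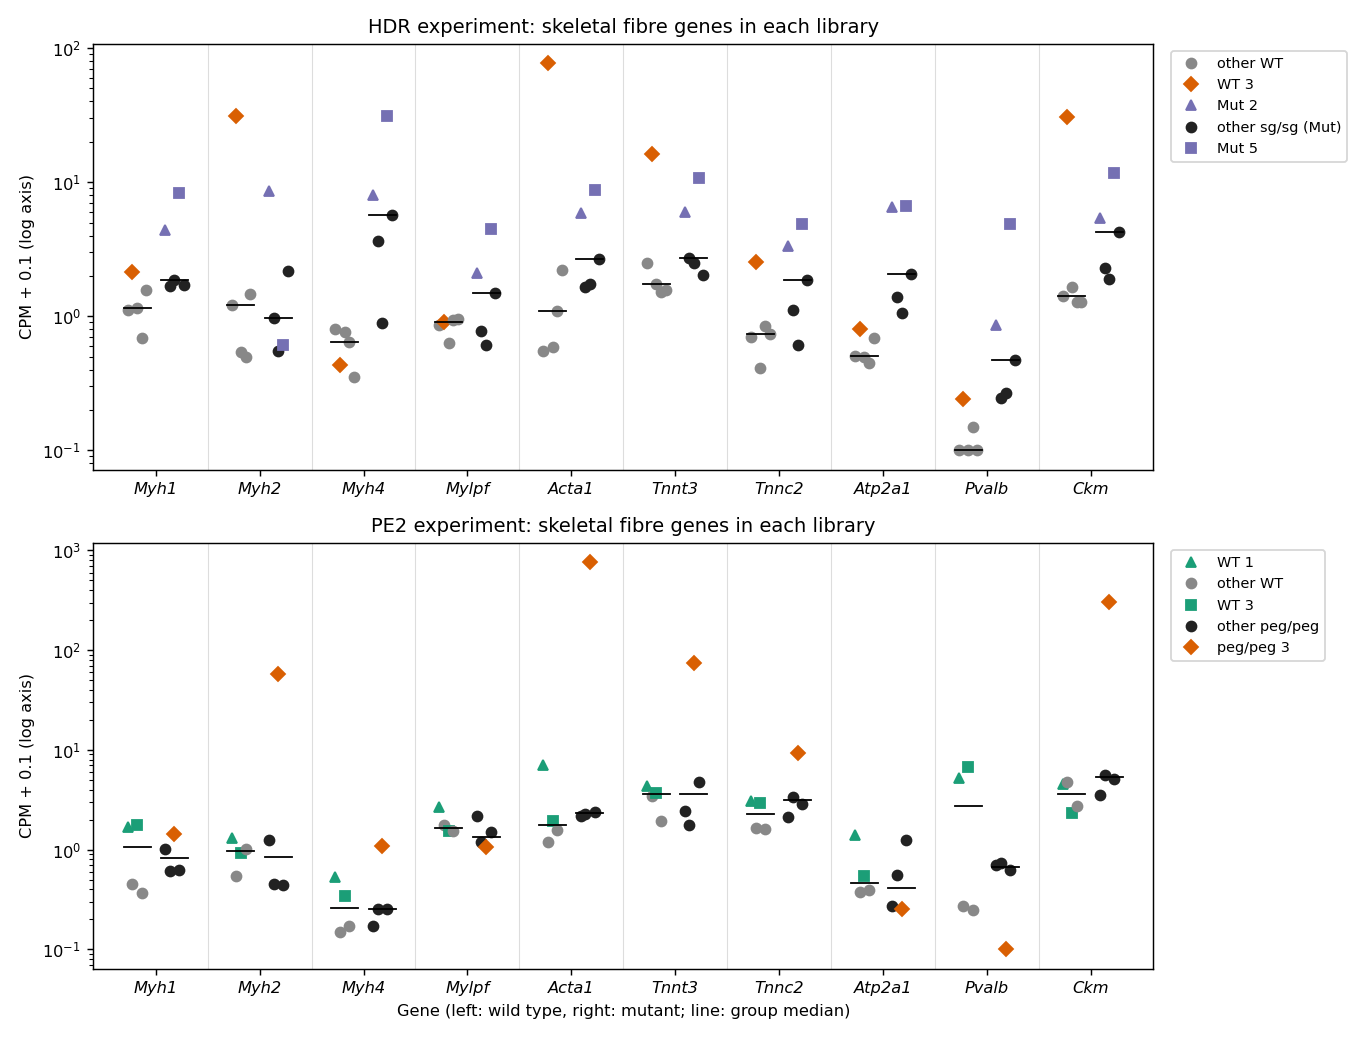
Level of each gene in each library, as CPM + 0.1 on a log axis, with wild type to the left and mutant (Mut, sg/sg, or peg/peg) to the right of each gene and a line at the group median. The orange diamonds, HDR wild-type library 3 and peg/peg library 3, are highest for *Acta1*, *Ckm*, *Myh2* and *Tnnt3* and lie far above the other libraries of their own group. In HDR, sg/sg library 5 came nearer for *Tnnt3* (10.7 against 16.0 CPM) and *Ckm* (11.7 against 30.6 CPM). The purple squares and triangles, sg/sg libraries 5 and 2, lead for *Myh4* and *Atp2a1*, and the green points, PE2 wild-type libraries 1 and 3, lead for *Pvalb* (5.15 and 6.66 CPM).

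Of the thin filament genes, *Acta1* encodes the actin of adult skeletal muscle (chr8:123891769-123894751, minus strand). It was at 0.452, 76.9, 0.485, 0.986 and 2.11 CPM in HDR wild-type libraries 2 to 6. It was at 5.84, 1.54, 1.64, 8.70 and 2.55 CPM in sg/sg libraries 2 to 6. Library 3 held 95.01% of the wild-type sum. Without it the wild-type mean was 1.009 ± 0.776 CPM (SD, n = 4) against 4.06 ± 3.13 CPM in sg/sg (SD, n = 5). The ratio of mutant to wild-type mean was thus 0.250 with library 3 and 4.02 without it. PE2 wild type was at 6.93, 1.10, 1.83 and 1.47 CPM, and peg/peg at 2.08, 2.19, 756 and 2.27 CPM. Library 3 held 99.1% of the peg/peg sum, and the ratio of means changed from 67.3 to 0.769 when it was left out.

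*Acta1* is close in sequence to the smooth muscle and cardiac actins. Of its 75-base stretches of transcript 0.394% were found unchanged, on either strand, in another gene (*Actb* and *Gm47692*). None were found in *Acta2* or *Actc1*. *Acta2* did not follow the *Acta1* order, at 7578 CPM in HDR wild-type library 3 against 5937 to 10910 CPM in the other 4 wild-type libraries and at 14230 CPM in peg/peg library 3 against 13270 to 23080 CPM in the other peg/peg libraries. *Actc1*, the cardiac actin, was highest in the same 2 libraries as *Acta1*, at 23.0 and 509 CPM. It was also at 16.1 CPM in HDR wild-type library 2 and 14.1 CPM in sg/sg library 4, where *Acta1* was at 0.452 and 1.64 CPM. In PE2 wild-type library 3 it was at 68.6 CPM, with *Acta1* at 1.83 CPM.

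*Tnnt3*, the fast troponin T that ties the troponin complex to tropomyosin, resembled *Acta1* with a smaller excess. HDR wild-type libraries 2 to 6 were at 2.41, 16.0, 1.63, 1.43 and 1.48 CPM, and sg/sg libraries 2 to 6 at 5.90, 2.61, 2.38, 10.7 and 1.92 CPM. In PE2 peg/peg library 3 it was at 74.2 CPM, with 1.65 to 4.67 CPM in the other 7 libraries. *Tnnc2*, the calcium sensor of fast troponin, was raised in both sets of libraries: wild-type library 3 was at 2.46 CPM against 0.309 to 0.739 CPM in the other 4 wild types, sg/sg libraries 2 and 5 were at 3.22 and 4.82 CPM, and peg/peg library 3 was at 9.29 CPM against 1.496 to 3.31 CPM in the other PE2 libraries. Of its 75-base stretches 35.0% are shared with the overlapping gene *Ube2c*, so its counts are less certain than those of *Tnnt3*, *Mylpf* and *Pvalb*, for which none were shared.

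*Atp2a1*, the calcium pump SERCA1 of the fast sarcoplasmic reticulum, was at 0.402, 0.709, 0.397, 0.345 and 0.592 CPM in HDR wild-type libraries 2 to 6 and at 6.39, 1.30, 0.962, 6.59 and 1.97 CPM in sg/sg libraries 2 to 6. All 5 mutants were above all 5 wild types, and sg/sg libraries 2 and 5 were nearly level. The lowest mutant, library 4, held 17 counts and the highest wild type, library 3, held 15, a gap within counting error. The ratio of means was 7.04, and 5.43 without library 5. Its PE2 levels were 1.30, 0.276, 0.441 and 0.294 CPM in wild type and 0.170, 0.458, 0.154 and 1.15 CPM in peg/peg, and the genotypes overlapped. Peg/peg library 3, the highest for *Acta1*, was the lowest for *Atp2a1*. Of the 75-base stretches of *Atp2a1* 15.8% are shared with *Rabep2*.

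*Pvalb*, the calcium buffer parvalbumin, held 4 counts over the 5 HDR wild-type libraries, 3 of which had none. A count of 0 allows up to 0.151 CPM at these depths. In sg/sg libraries 2 to 6 it was at 0.764, 0.145, 0.170, 4.77 and 0.373 CPM, all above the highest wild type at 0.142 CPM. Libraries 3 and 4 held 3 counts each, as did wild-type library 3, so the separation of the groups was within counting error. PE2 wild type was at 5.15, 0.175, 6.66 and 0.147 CPM, and peg/peg at 0.606, 0.636, 0 and 0.521 CPM. The genotypes overlapped: wild-type libraries 1 and 3 were above every peg/peg library, and wild-type libraries 2 and 4 below peg/peg libraries 1, 2 and 4. *Myh4* and *Myh1* were also higher in PE2 wild-type libraries 1 and 3 than in 2 and 4, *Myh4* at 0.433 and 0.243 against 0.0501 and 0.0736 CPM, and *Myh1* at 1.58 and 1.66 against 0.351 and 0.270 CPM.

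*Ckm*, the creatine kinase that buffers ATP in muscle, was at 1.31, 30.6, 1.54, 1.18 and 1.18 CPM in HDR wild-type libraries 2 to 6 and at 5.35, 2.17, 1.81, 11.7 and 4.15 CPM in sg/sg libraries 2 to 6. With wild-type library 3 set aside after its values were seen, every sg/sg library was above every remaining wild-type library, whose mean was 1.30 ± 0.170 CPM (SD, n = 4). The lowest sg/sg library, 4, held 32 counts and wild-type library 4 held 35, so this separation was within counting error. In peg/peg library 3 it was at 300.4 CPM, against 2.25 to 5.47 CPM in the other 7 PE2 libraries. Peg/peg libraries 2, 3 and 4 were above the highest wild type, at 4.63 CPM.

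Levels can be compared between genes per kilobase of exon. By the median CPM per kilobase in HDR wild type, *Tnnt3* (1.03), *Tnnc2* (0.793), *Mylpf* (0.757), *Acta1* (0.642) and *Ckm* (0.449) came before *Myh1* (0.167), *Myh2* (0.155), *Atp2a1* (0.116), *Myh4* (0.0901) and *Pvalb* (0). The ranges of neighbours in this order overlapped between libraries, except that every library of *Ckm* (lowest 0.406 CPM per kilobase) was above every library of *Myh1* (highest 0.320). In sg/sg *Myh4* moved up to 0.938 CPM per kilobase at the median, with a range from 0.132 to 5.18. In bulk tissue, more fibre tissue in a sample and more RNA per fibre cannot be told apart.

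**Figure D2:**
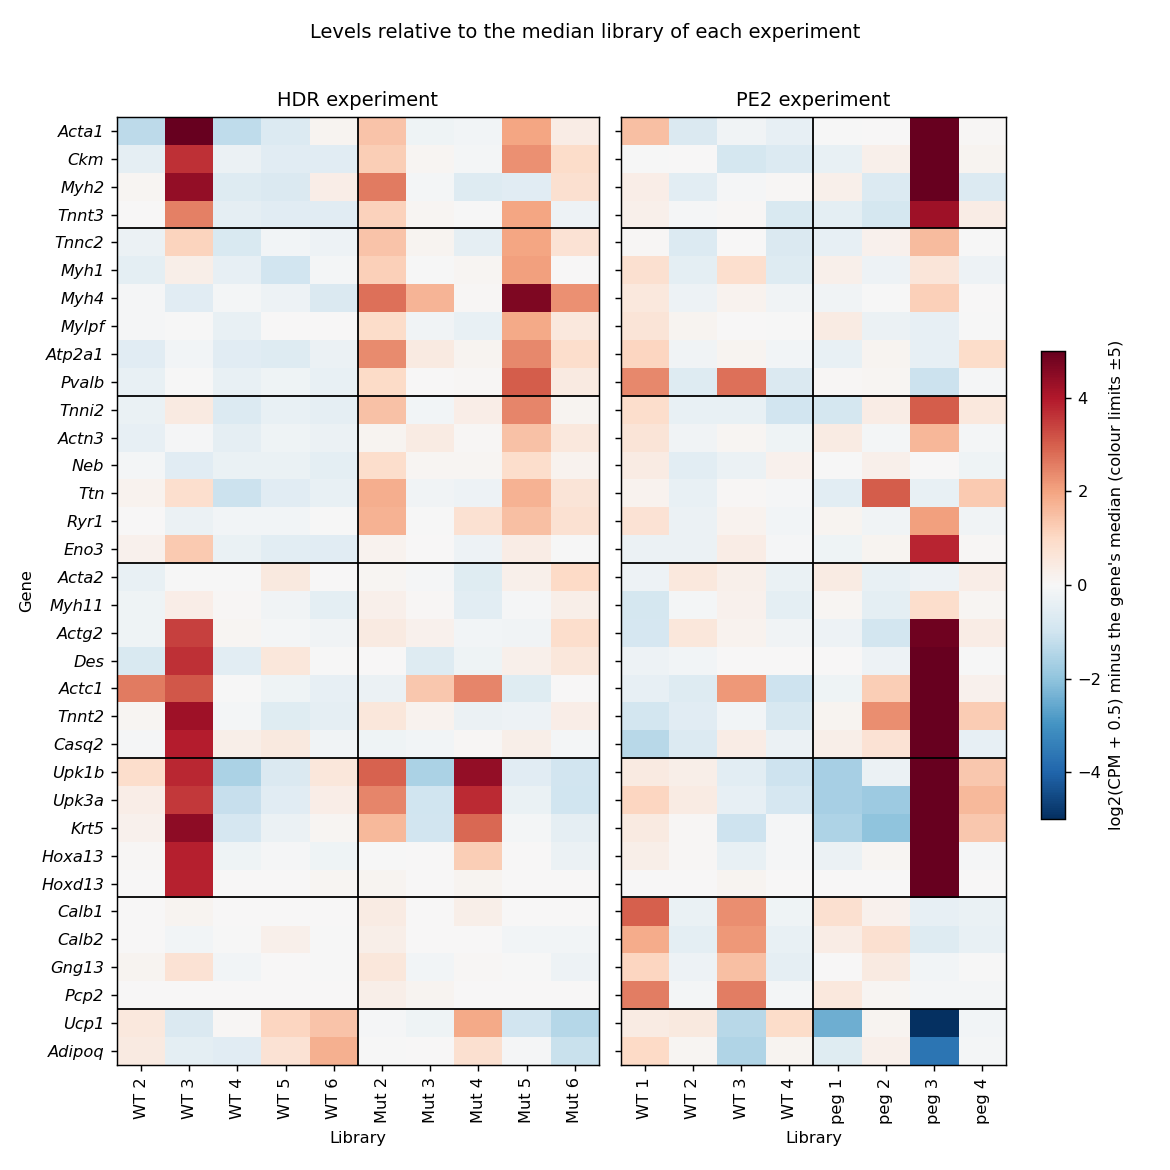
Log2(CPM + 0.5) of each gene in each library minus the median of that gene over the libraries of the experiment, with red above and blue below the median and colours limited to 5 either way. From top to bottom, the rows are the members highest in HDR wild-type library 3, the members highest in HDR mutant library 5, other fibre genes, smooth muscle and heart genes, genes of the bladder lining and hind-body homeobox genes, neuronal genes and fat genes. *Acta1*, *Ckm*, *Myh2* and *Tnnt3* are red in the same 2 columns as *Actg2* and *Des*. *Upk1b* is red there too, but in HDR also in sg/sg libraries 2 and 4 (11.03 and 30.5 CPM). PE2 *Pvalb* is red in the same 2 columns as *Calb1* and *Pcp2*.

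The companions of the members differed in the same way. Where *Acta1* was high, so were some genes of visceral smooth muscle and heart, chosen after their values were seen. *Actg2*, the actin of gut and bladder smooth muscle, was at 1109 CPM in HDR wild-type library 3 and 8942 CPM in peg/peg library 3, with 88.1 to 192 CPM in the other HDR and 161 to 456 CPM in the other PE2 libraries. *Des*, the intermediate filament of muscle, was at 945 and 5570 CPM there and at no more than 111 CPM in any other library. *Casq2*, the cardiac and slow calsequestrin, was at 24.8 and 126 CPM, with at most 6.01 CPM elsewhere. Other heart genes did not share this: in peg/peg library 3 *Ryr2*, the cardiac calcium release channel, was at 7.78 CPM against 36.3 to 61.9 CPM in the other PE2 libraries, *Hrc*, a calcium-binding protein of the sarcoplasmic reticulum, at 1.56 against 9.81 to 26.1 CPM, and *Myh6* at 1.34 CPM, within the wild-type range. Of the 12 cardiac genes 4 were highest in that library. Sg/sg libraries 2 and 4 also held *Upk1b*, at 11.03 and 30.5 CPM, with *Acta1* at 5.84 and 1.64 CPM. The part of such tissue in the fibre gene values was not tested.

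Where *Myh4* and *Atp2a1* were high, some other fast fibre genes, chosen after their values were seen, were too. The fast troponin I *Tnni2* was at 2.51 and 5.33 CPM in sg/sg libraries 2 and 5 and at most at 0.993 CPM in the other 8 HDR libraries. The giant sarcomere protein titin, *Ttn*, was at 82.4 and 77.5 CPM, with 10.7 to 41.1 CPM in the other 8. *Actn3*, the actinin of fast fibres, was at 4.63 CPM in sg/sg library 5 but at 1.53 CPM in library 2. *Actg2* stayed at 140 and 92.1 CPM and *Des* at 77.3 and 89.7 CPM in sg/sg libraries 2 and 5. Not all fast fibre genes shared the pattern. *Casq1* was at 30.1 and 35.0 CPM in these libraries and highest in sg/sg library 6 (85.03 CPM), as was *Mybpc2*, a fast myosin-binding protein (6.88, 9.30 and 12.3 CPM), and *Myl1*, a fast myosin light chain, was at 3.11 and 7.90 CPM and highest in wild-type library 6 (10.02 CPM).

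The genes closest to *Pvalb* over the 8 PE2 libraries were *Calb2* (Pearson's r 0.964, Spearman's rho 0.976), *Gng13* (0.961, 0.929), *Slc17a7* (0.954, 0.810) and *Calb1* (0.952, 0.881). Without the 2 libraries farthest from the median, wild-type libraries 1 and 3, r was 0.638 to 0.806 for these 4 genes. *Calb1* and *Calb2* encode calcium buffers of neurons. *Pcp2*, a gene of cerebellar Purkinje cells, which also contain parvalbumin, was at 2.65 and 2.63 CPM in wild-type libraries 1 and 3 and at no more than 0.267 CPM in the other 6. These genes were looked up after their values were seen, and the libraries share their depth and scaling.

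The mean of the tested members, with the genotype means subtracted, was followed most closely over the 10 HDR libraries by *Xirp2* (Pearson's r 0.929, Spearman's rho 0.782), *Glis3* (0.911, 0.782), *Nin* (0.910, 0.782), *Ttn* (0.898, 0.927) and *Irf2bpl* (0.886, 0.855). *Xirp2* and *Ttn* are genes of the sarcomere. Without sg/sg library 5 and wild-type library 3, r was 0.849 for *Xirp2*, 0.707 for *Glis3*, 0.761 for *Nin*, 0.899 for *Ttn* and 0.649 for *Irf2bpl*. Over the 8 PE2 libraries the closest were *Cdkal1* (0.994, 0.929), *Zfp53* (0.991, 0.976), *Styk1* (0.990, 1.00), *Thoc1* (0.985, 0.810) and *Ryr1* (0.985, 0.881), the calcium release channel of skeletal muscle. All 5 of these were highest in peg/peg library 3, and r was 0.839 to 0.988 without that library and wild-type library 1.

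With all libraries, the members varied more within genotypes than most genes. The genes were not matched for level, and counting error adds to the SD of members with low counts. The SD of log2(CPM + 0.5) within genotypes had a median of 1.14 over the 9 members tested in HDR and of 0.281 over all 16423 genes tested, and the members' median percentile was 99.3. *Acta1* was at percentile 99.9 and *Mylpf*, the least variable, at 94.5. For PE2 the medians were 1.40 and 0.266, with a median percentile of 97.7. There *Acta1* was again at the top (100.0, rounded from 99.96) and *Mylpf* at 61.3. Much of this lay in few libraries, by alternatives added after seeing the data. Without HDR wild-type library 3 the members' median SD was 0.750 (percentile 96.9), and without sg/sg libraries 2 and 5 as well it was 0.352, against 0.291 over all genes (percentile 63.0). *Myh4* (percentile 96.2) and *Myh2* (91.5) were then the most variable, and *Atp2a1* (45.1), *Myh1* (46.4) and *Tnnt3* (37.8) were below the middle of all genes. Without peg/peg library 3 the PE2 median was 0.533 (percentile 89.4), the SD of *Acta1* was 0.769 in place of 2.96, and *Pvalb* was the most variable member (percentile 99.6).

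In the HDR fit, the filter on low counts kept 9 of the 10 members, with *Pvalb* left out, and 0 were called by edgeR's quasi-likelihood test at an adjusted p under 0.05, where 0.00609% of all genes tested were called. At an unadjusted p under 0.05 there were 4, where 1.98% of all genes were. DESeq2's Wald test gave an adjusted p for 7 members and called 2, *Atp2a1* and *Myh4*, both higher (0.00933% of all genes). The same 2 were called by edgeR without the filter on low counts, where 4 genes were called in all, and limma-voom called 0 of 9 (0.00609%). For *Myh4* and *Atp2a1* all mutant libraries were above all wild-type libraries, as for 0.122% of all genes tested. The lowest mutant, library 4, held 14 and 17 counts of them, against 14 and 15 counts in the highest wild-type library. Both separations were thus within counting error. *Pvalb*, separated by counts at the limit given above, is not among the genes tested. Since this contrast was in view when the genes were chosen, nothing is read from these counts.

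The fitted log2 fold changes of sg/sg against wild type were 4.29 ± 0.84 (SE, n = 5 against 5) for *Myh4*, 2.80 ± 0.57 for *Atp2a1*, 1.4996 ± 0.51 for *Myh1*, 1.26 ± 0.64 for *Tnnc2* and 1.25 ± 0.51 for *Mylpf*. *Tnnt3* was at 0.04 ± 0.75, *Ckm* at -0.50 ± 0.96, *Myh2* at -1.46 ± 1.24 and *Acta1* at -1.99 ± 1.29. The sign of the last 3 turned without wild-type library 3, and that of *Acta1* and *Ckm* also with the test: limma-voom on all 10 libraries gave 0.63 for *Acta1*, 0.73 for *Ckm*, 0.53 for *Tnnt3* and -0.25 for *Myh2*. Without library 3, by edgeR, *Acta1* was at 1.99, *Ckm* at 1.95, *Myh2* at 1.58 and *Tnnt3* at 1.44. Without sg/sg libraries 2 and 5, an alternative added after seeing the data, *Myh4* was at 2.74, *Atp2a1* at 1.51, *Myh1* at 0.41, *Tnnc2* at 0.21 and *Mylpf* at 0.18.

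In the PE2 fit *Myh4* did not pass the filter, and 0 of the other 9 members were called by edgeR (0.0061% of all genes were), with 3 at an unadjusted p under 0.05 (4.3% of all genes). DESeq2 called 0 of the 6 members with an adjusted p (0.189% of all genes) and limma-voom 0 of 9 (0.0061%). The log2 fold changes of peg/peg against wild type were 6.07 ± 2.28 (SE, n = 4 against 4) for *Acta1*, 4.49 ± 1.596 for *Ckm*, 4.12 ± 1.71 for *Myh2*, 2.67 ± 1.219 for *Tnnt3* and 0.97 ± 0.52 for *Tnnc2*. Without peg/peg library 3 these became -0.38, 0.41, -0.47, -0.18 and 0.27. *Myh1*, *Atp2a1* and *Mylpf* were at -0.23 ± 0.67, -0.26 ± 0.79 and -0.37 ± 0.33, and *Pvalb* was at -2.78 ± 1.43. By limma-voom on all 8 libraries *Acta1* was at 2.35, *Ckm* at 2.10, *Myh2* at 1.20 and *Tnnt3* at 1.07. With the replicate number as a block, *Acta1* was at 1.24 and *Pvalb* at -1.37.

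**Figure D3:**
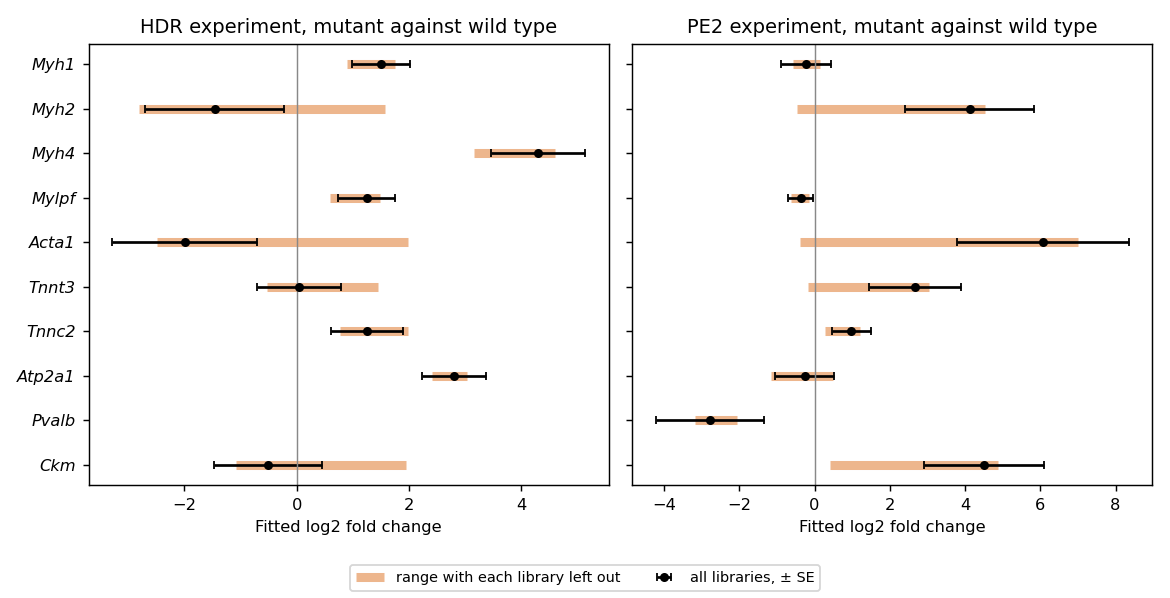
Fitted log2 fold change of mutant against wild type for the members that passed the filter (x axis; points with SE), with an orange bar over the range of values obtained when each library is left out in turn. In the HDR experiment the bars of *Acta1*, *Ckm*, *Myh2* and *Tnnt3* cross 0 while those of *Myh4* (3.16 to 4.59) and *Atp2a1* (2.42 to 3.03) stay above it, and in the PE2 experiment the bar of *Acta1* runs from -0.38 to 7.01.

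Other genes of muscle were examined in lists written from general knowledge. Of 26 other fast or common fibre genes, 16 were tested in HDR, where 12 had a positive and 4 a negative fold change with a median log2 of 0.31, against 0.00 over all genes tested, and 0 were called by edgeR (5 at an unadjusted p under 0.05, all higher). In HDR 8 of the 26 were highest in sg/sg library 5, 7 in sg/sg library 2 and 3 in wild-type library 3. In the PE2 experiment 19 were tested and 0 called (1 at an unadjusted p under 0.05), with a median of 0.12, and 7 of the 26 were highest in peg/peg library 2, 6 in peg/peg library 3 and 4 in peg/peg library 4. The calsequestrin *Casq1* was at 13.01 to 85.03 CPM in HDR and at 408 CPM in PE2 wild-type library 2, and at 6.59 CPM in peg/peg library 3. The glycogen phosphorylase *Pygm* ran from 36.7 to 75.1 CPM in HDR, highest in sg/sg library 6, and from 54.96 to 91.9 CPM in PE2. *Tcap*, a titin cap protein, was at 121 to 218 CPM in libraries 2 to 4 of both HDR genotypes, highest in sg/sg library 2. Libraries 5 and 6 of both genotypes were at 11.2 to 34.6 CPM. In PE2 it was lowest in peg/peg library 3 (6.28 CPM), against 10.7 to 166.5 CPM in the other PE2 libraries.

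Slow fibre genes had no called member in either genotype comparison, with 5 of 9 tested in HDR (1 lower at an unadjusted p under 0.05) and 8 of 9 in PE2 (2 higher). Their summed level was 13.2 to 40.3 CPM in HDR wild type, 12.8 to 31.5 CPM in sg/sg, 18.7 to 32.4 CPM in PE2 wild type and 28.4 to 138 CPM in peg/peg, with the highest value of each experiment in the library numbered 3 that was high for *Acta1*. These 2 values were carried by *Casq2*, at 24.8 of 40.3 CPM and 126 of 138 CPM. Without *Casq2* (an alternative added after seeing the data) the sum was 15.5 CPM in HDR wild-type library 3, within the 11.2 to 30.4 CPM of the other HDR libraries, and 12.1 CPM in peg/peg library 3, below the 17.7 to 38.3 CPM of the other PE2 libraries. For the muscle precursor and regeneration genes, 2 of 11 were tested in each experiment and 0 were called (0 at an unadjusted p under 0.05), and *Myf5* and *Chrng* were at 0 in all 8 PE2 libraries. Of 12 cardiac genes, 8 were highest in HDR wild-type library 3, among them *Myh6* at 20.8 CPM, but in the PE2 experiment 5, *Myh6* and *Myl7* among them, were highest in peg/peg library 2 (42.3 and 16.2 CPM), where *Acta1* was at 2.19 CPM. Over all 10 other lists, 60 of 91 genes were tested in HDR and 71 in PE2, and edgeR called 0 in either (9 and 8 at an unadjusted p under 0.05). These lists include smooth muscle genes (0 of 10 called in either experiment), brown and white fat genes (0 of 5 each), lymphoid genes (0 of 2 tested in HDR, 0 of 5 in PE2), and endothelial and fibroblast genes (0 of 4 each). The 5 brown fat genes had negative fitted fold changes in both experiments, with 0 called, and their summed level was 5.60 CPM in peg/peg library 3.

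The wild-type aortae of the 2 experiments gave a comparison that had not served to choose the members. All 18 libraries were fitted in 4 groups, and PE2 wild type was set against HDR wild type. Age, labelled strain and depth differ between the experiments and cannot be told apart, and 55.7% of the 18094 genes tested were called. Of the 10 members, 2 were called, both higher in PE2. *Mylpf* was at 1.78 ± 0.512 CPM (SD, n = 4) in PE2 and 0.753 ± 0.131 CPM (SD, n = 5) in HDR, and all 4 PE2 libraries were above all 5 HDR libraries, with a log2 difference of 1.24 ± 0.48 (SE, edgeR quasi-likelihood test, Benjamini-Hochberg adjusted p = 0.0357, range over the alternatives 0.0104 to 0.176). The call of *Mylpf* was lost when any 1 of HDR wild-type libraries 2, 3, 4 or 5, any of the 4 PE2 wild-type libraries or peg/peg library 2 was left out, with edgeR adjusted p-values of 0.0502 to 0.134. *Pvalb* was at 3.07 ± 3.44 CPM in PE2 and 0.0382 ± 0.0617 CPM in HDR, again with all 4 PE2 libraries above all 5 HDR libraries, a log2 difference of 6.21 ± 1.58 and an edgeR adjusted p of 0.00287 (range 0.000224 to 0.128). PE2 wild-type libraries 2 and 4, with 7 and 6 counts, were above HDR wild-type library 3, with 3 counts, by no more than counting error. The difference rested on PE2 wild-type libraries 1 and 3: without these and the 2 libraries high for *Acta1*, an alternative added after seeing the data, the difference was 3.37 with an edgeR adjusted p of 0.128. The share of all genes separated between the experiments as *Mylpf* and *Pvalb* were is not given here, so nothing is read from that separation.

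The other 8 members did not pass the test. *Myh2*, at -3.01 ± 1.62, passed it when peg/peg library 3 alone was left out (-2.997, edgeR adjusted p = 0.04405) and *Tnnc2* when HDR wild-type library 3 alone was (1.953). *Tnnc2* was at 1.23 ± 0.64 and *Ckm* at -1.04 ± 1.27 with all libraries. Without HDR wild-type library 3 and peg/peg library 3 (added after seeing the data), *Tnnc2* was 1.95 ± 0.55 higher in PE2 (edgeR adjusted p = 0.00654), *Ckm* 1.40 ± 0.48 higher (edgeR adjusted p = 0.0197) and *Mylpf* 1.25 ± 0.52 higher (edgeR adjusted p = 0.0511). *Acta1*, at -2.52 ± 1.76 with all libraries, was then at 1.48 ± 0.67 (edgeR adjusted p = 0.0714). In the lists of other genes, 21 of 73 tested were called, 14 higher and 7 lower in PE2, where 55.7% of all genes tested were called. The fibre genes *Casq1* (log2 difference 3.01), *Mb* (2.32), *Pgam2* (1.48), *Mybpc2* (1.13) and *Pygm* (0.55) were higher and *Ttn* (-5.63), *Neb* (-2.51) and *Jph1* (-1.61) lower. Of the slow fibre genes *Myl2* (2.98) and *Tnnt1* (1.82) were higher, and of the precursor genes *Chrna1* (2.22) was higher and *Musk* (-2.11) lower. *Acta2* (1.21) and *Tagln* (1.15) of smooth muscle were higher and *Synpo2* (-0.98) lower. The cardiac *Ryr2* (-1.70) and the fibroblast marker *Pdgfra* (-1.41) were lower, and *Dpt* (0.76), *Cdh5* (0.89), *Tie1* (0.74) and *Cd79a* (2.08) higher.

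**Figure D4:**
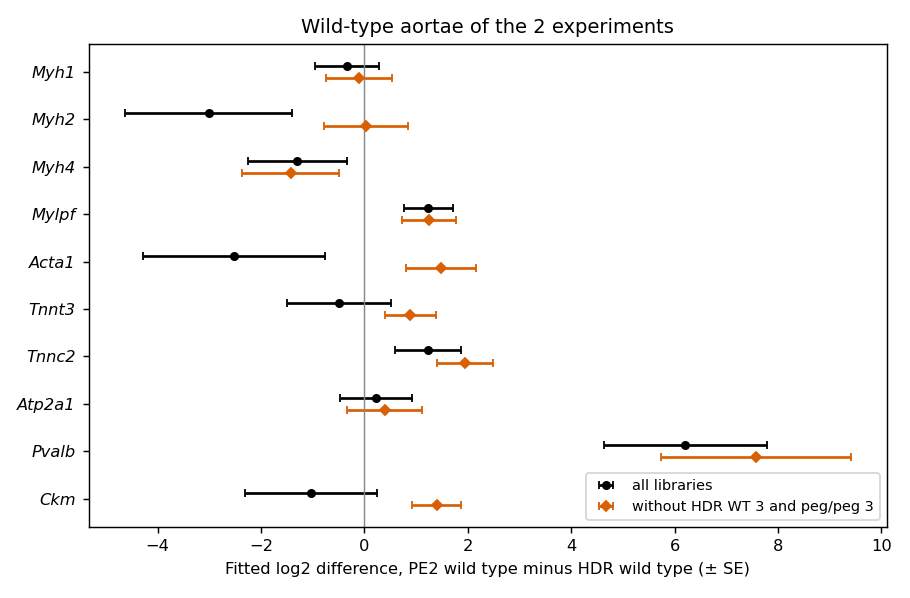
Fitted log2 difference of PE2 minus HDR wild-type aorta for each member (x axis, with SE), with all 18 libraries in black and without HDR wild-type library 3 and peg/peg library 3 in orange. *Pvalb* lies farthest to the right in both fits (6.21 and 7.57), and *Acta1* moves from -2.52 to 1.48 and *Ckm* from -1.04 to 1.40 when the 2 libraries are left out.

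The 3 heavy chain genes share sequence with each other and with their neighbours. Of their 75-base stretches of transcript, 20.9% for *Myh1*, 15.5% for *Myh2* and 9.68% for *Myh4* occur unchanged in another gene, on either strand. Of those of *Myh4*, 4.9% occur in *Myh1*. The counts for *Myh1* and *Myh2* are therefore less certain than the contrast between *Myh2* and *Myh4*, which shared 3.79% of the stretches of *Myh4*. For *Ckm* 8.26% of the stretches are shared with *A930016O22Rik*.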

How the data were processed

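The authors deposited, for each experiment, raw counts per gene symbol, made by alignment to GRCm38 with STAR 2.7.0f and counting with featureCounts (Subread 1.6.4) on Gencode M22. Strand setting is not given in the sources used here, and labels and methods differ on the kit, the read length (100 or 75 bases) and the strain of the mice. The deposited normalized counts were not used, and 0 columns of per-sample counts were left unused. The 10 genes, the marker lists and the tests were chosen with earlier results of these data known. The text names the 10 genes, *Tspan2*, *Acta2*, *Actc1*, the called or most abundant genes of the lists and the 5 genes closest to the members' mean, and says where others were named after their values were seen.

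edgeR 4.0.16 in R 4.3.3 (TMM scaling, filterByExpr, quasi-likelihood test, Benjamini-Hochberg adjustment, threshold 0.05) was fitted on all genes, within each experiment and over all 18 libraries, and was tested on simulated data. SE is the log2 fold change divided by the square root of F. Groups came from the labels and column names. DESeq2 1.42.0, limma 3.58.1 and other filters and scalings were alternatives. Positions, exon lengths and shared stretches were taken from Gencode M21 and summaries were made with Python 3.11.15 and pandas 2.3.3. Stretches found on the opposite strand of another gene were counted as shared, whatever the strand setting of the counts. No 2 libraries of the same group agreed within sampling noise, and pairs across groups were not checked. Depth limits the precision of the low counts, and a limit at a count of 0 (3 counts) covers counting error only.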

Additional observations from a re-analysis of the deposited data

Results flagged for a closer look

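A group was examined for a single library far from the rest by the gap of the highest or lowest library to its nearest neighbour divided by the whole range of the group. Of 40 groups (10 genes in 4 groups), 15 exceeded Dixon's critical value at the 0.05 level, which normally distributed values exceed in about 1 in 20 groups. The genes were chosen with earlier results of these data known, and many of their counts were low. The number of groups is therefore a description and no test against chance. All 15 were high values. The groups share libraries, so the genes are not separate observations.

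HDR wild-type library 3 gave *Acta1* (0.978), *Ckm* (0.988), *Myh2* (0.968), *Tnnt3* (0.933) and *Tnnc2* (0.8). Peg/peg library 3 gave *Acta1* (1.0), *Ckm* (0.993), *Myh2* (0.986), *Tnnt3* (0.959) and *Myh4* (0.909). Sg/sg library 5 gave *Pvalb* (0.866) and *Myh4* (0.765), and sg/sg library 2 gave *Myh2* (0.8). PE2 wild-type library 1 gave *Acta1* (0.875) and *Atp2a1* (0.838).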

How the results depend on the processing

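With 1 gene called in each genotype comparison, the HDR count was 4 with no filter and 4 by DESeq2 (*Myh4* and *Atp2a1* among them both times), 0 without sg/sg libraries 2 and 5 (added after seeing the data), and 1 with any 1 library left out. The PE2 count was 33 by DESeq2, 0 with sex as a term, and from 0 to 2 with 1 library left out (2 without peg/peg library 3, 0 without any of wild-type libraries 1, 2 and 4 or peg/peg libraries 1, 2 and 4). The replicate block gave 0 genes, with 402 at an unadjusted p under 0.05 in edgeR. Same-numbered PE2 libraries deviated with correlations of -0.046, -0.184, -0.036 and -0.254, and different-numbered ones with -0.3 to 0.431. The labels state no pairing, and these values cannot decide whether there was one. No paired analysis was possible in HDR because the count columns carry other numbers than the labels.

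For PE2 against HDR wild type, the sign of 5 uncalled differences turned. By limma-voom *Acta1* was at 0.0275, *Ckm* at 0.43, *Tnnt3* at 0.23 and *Atp2a1* at -0.0536. Without HDR wild-type library 3 and peg/peg library 3, *Acta1* was at 1.48, *Ckm* at 1.40, *Myh2* at 0.0301 and *Tnnt3* at 0.89. Without PE2 wild-type libraries 1 and 3 as well, *Acta1* was at 0.35, *Ckm* at 1.49, *Tnnt3* at 0.59 and *Atp2a1* at -0.59. With 1 library left out, *Acta1* ran from -3.52 to 1.45, *Ckm* from -1.31 to 1.42, *Myh2* from -3.32 to 0.0256, *Tnnt3* from -0.72 to 0.91 and *Atp2a1* from -0.59 to 0.46. Apart from the alternatives that leave libraries out, the cause was not tested. The members' median percentile of variation was 63.0 in HDR without wild-type library 3 and sg/sg libraries 2 and 5 and 89.4 in PE2 without peg/peg library 3 (both added after seeing the data). Counts under 10 limit *Myh4* and *Pvalb* most.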

Other observations

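Genes of heart muscle, named after their values were seen, were high in further PE2 libraries. *Myh6*, the atrial and adult mouse heart myosin, was at 42.3 CPM in peg/peg library 2 and 10.6 CPM in library 4, and at no more than 1.63 CPM in the other 6 PE2 libraries. *Myl7*, the atrial light chain, was at 16.2 and 8.24 CPM there, 2.88 CPM in peg/peg library 3 and at most 0.861 CPM in the 4 wild-type libraries. *Acta1* was at 2.19 and 2.27 CPM in peg/peg libraries 2 and 4, within the range of the PE2 wild-type libraries.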
